A study of Mus musculus with 4 samples.

Results

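The genes described here encode the enzymes and the chaperone that modify, fold and trim procollagen: the prolyl 4-hydroxylase alpha subunits P4ha1, P4ha2 and P4ha3, the lysyl hydroxylases Plod1, Plod2 and Plod3, the collagen chaperone Serpinh1 (Hsp47), the procollagen C-proteinase Bmp1, and its enhancers Pcolce and Pcolce2. They were chosen by name and function, with earlier results of these data known. They are 10 of the 22911 mouse genes that could be named on the arrays. Total RNA came from subcutaneous Bcr-Abl+ tumors grown in C57BL/6Ncr recipients aged 8 weeks, either wild type (WT) or Sipa1 KO. The KO mice lack Sipa1, a GTPase-activating protein that switches off the small GTPase Rap1, in every cell of the host, and the tumor cells themselves were hematopoietic progenitors transduced with p210 Bcr-Abl and GFP. Each recipient got 15000 tumor cells in Matrigel, and tumors were taken on day 12. From each genotype, mesenchymal stroma cells (MSCs) were sorted by the absence of GFP, CD45, Ter119 and CD31, a gate with no positive mesenchymal marker, and CD8+ T cells as GFP- cells with TCRb and CD8. There were 5 mice per genotype, whether their cells were pooled for an array is not given in the sources used here, and each of the 4 conditions was measured on 1 Agilent one-color array. No difference below therefore has a replicate check, no test or p-value was computed, and the number of arrays limits the precision.

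Collagen chains are made in the endoplasmic reticulum, where prolyl 4-hydroxylases convert proline to 4-hydroxyproline, the residue that keeps the triple helix stable at body temperature. Lysyl hydroxylases modify lysines that later carry sugars or become crosslinks, and Hsp47 binds the folded helix until it leaves for the Golgi. After secretion, Bmp1 removes the C-propeptide so that fibrils can form, and the Pcolce proteins speed up that cut. The hydroxylases need oxygen, iron and 2-oxoglutarate, and several of their genes are known targets of the hypoxia-inducible factor, whose binding site has the core ACGTG or GCGTG.

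Because these genes were all higher on the KO MSC array than on the WT one, the 250 bases before their annotated starts were read from RefSeq windows of build GRCm38.p6 and searched on both strands. Windows were held for 8 of the 10 genes, all but Plod2 and Bmp1. The hypoxia core occurred in 6 of these 8, against 38.6% of all 32851 windows. The GC box GGGCGG occurred in 7 of 8 against 32.7%, TATAAA in 1 of 8 against 12.4%, and the heat shock motif GAANNTTC in none of them against 6.7%. The windows of these genes were 55.6% to 70.0% GC and the median window was 52.4% GC, and the shares were not matched for base composition. No core match overlapped another of these motifs. The 5 windows whose start is the outer end of the gene are shown, because they span the range from 4 core matches to none: P4ha2 (chr11:54100674-54100923, plus strand), Plod1 (chr4:147936777-147937026, minus strand), Plod3 (chr5:136986769-136987018, plus strand), Serpinh1 (chr7:99353240-99353489, minus strand) and Pcolce2 (chr9:95637378-95637627, plus strand). They are written 5′ to 3′ in the direction of the gene, and capitals mark the hypoxia core on either strand.
P4ha2: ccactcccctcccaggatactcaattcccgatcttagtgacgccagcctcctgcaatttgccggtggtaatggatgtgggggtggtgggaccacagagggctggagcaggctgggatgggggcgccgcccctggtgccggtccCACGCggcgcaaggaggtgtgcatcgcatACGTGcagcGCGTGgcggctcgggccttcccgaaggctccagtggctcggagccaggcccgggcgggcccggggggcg
Plod1: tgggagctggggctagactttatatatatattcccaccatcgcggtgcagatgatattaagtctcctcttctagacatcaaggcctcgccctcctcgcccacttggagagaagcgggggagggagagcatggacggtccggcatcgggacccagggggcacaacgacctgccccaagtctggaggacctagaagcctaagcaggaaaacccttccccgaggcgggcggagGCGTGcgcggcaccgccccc
Plod3: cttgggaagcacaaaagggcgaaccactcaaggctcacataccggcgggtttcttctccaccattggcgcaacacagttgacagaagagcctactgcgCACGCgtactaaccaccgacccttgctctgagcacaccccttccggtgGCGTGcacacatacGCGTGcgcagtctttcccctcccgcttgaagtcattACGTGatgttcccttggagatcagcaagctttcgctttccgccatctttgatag
Serpinh1: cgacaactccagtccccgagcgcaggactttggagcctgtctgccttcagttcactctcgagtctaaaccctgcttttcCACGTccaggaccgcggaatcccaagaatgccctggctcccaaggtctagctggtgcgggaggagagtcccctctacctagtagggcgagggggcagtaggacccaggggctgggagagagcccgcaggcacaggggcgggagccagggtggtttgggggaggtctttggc
Pcolce2: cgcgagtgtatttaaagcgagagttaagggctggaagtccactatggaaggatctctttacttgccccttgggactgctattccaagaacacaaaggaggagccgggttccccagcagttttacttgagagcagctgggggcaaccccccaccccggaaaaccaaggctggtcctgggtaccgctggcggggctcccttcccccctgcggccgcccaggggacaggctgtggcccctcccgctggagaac
Plod3 held 4 core matches, P4ha2 held 3, Plod1 and Serpinh1 held 1 each, and Pcolce2 held none. Their log2 ratios between genotypes on the MSC arrays, described below, were 1.21 for Plod3, 2.34 for P4ha2 and 2.35 for Plod1. Those of Serpinh1 and Pcolce2 were 1.65 and 1.36. The windows not shown held 3 matches for P4ha1, 1 for Pcolce and none for P4ha3, with ratios of 1.98, 1.35 and 2.00. Whether the matches bear on the ratios was not tested.

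A log2 signal below is the log2 of a spot's intensity minus that of the array's own 75th percentile, so 0 is the 75th percentile and 1 unit is 2-fold. Spots well above background made up 60.3% to 65.3% of 59305 spots per array, none was saturated, and probes printed on 10 spots had a median SD of 0.040 to 0.044, which covers spot noise only. Both Sipa1 probes were lower on the KO arrays of either cell type. The signal of one of them was 5.03 in WT and 3.78 in KO MSCs and 5.40 in WT and 3.73 in KO CD8+ T cells, and that of the other was 3.05 and 1.46, then 3.43 and 1.39. All of these Sipa1 signals were well above background, and where the probes lie relative to the disrupted part of the gene is not given in the sources used here.

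The sorts were checked against marker genes. Fibroblast markers were strong on both MSC arrays, with Dcn (decorin) at 7.71 in WT and 8.57 in KO. Of these markers 13 of 15 had a probe that passed the quality flags, all but Pdgfra and Pi16. Both were bright on the WT and KO MSC arrays without passing, Pdgfra at 3.01 and 4.52 and Pi16 at 6.08 and 7.37. T-cell markers were strong on both CD8+ T arrays, with Cd8a at 3.46 and 3.57, whereas its signal on the WT MSC array did not pass the flags. Without Thy1, which fibroblasts share, 9 T-cell markers summed to 609 and 624 times the 75th percentile on the WT and KO CD8+ T arrays, and to 20.8 and 4.78 on the MSC arrays. With Thy1 the MSC sums were 63.4 and 98.5. The lower KO sum without Thy1 came mostly from Cd2, at 4.08 on the WT and 0.56 on the KO MSC array. Of 8 T-cell markers measured on both MSC arrays without Thy1, 3 were at least 2-fold higher in KO and 3 at least 2-fold lower. Their median log2 ratio was 0.67. Markers of other cell types were also measured in each sort. Those of skeletal muscle summed to 52.8 and 84.0 times the 75th percentile on the WT and KO MSC arrays. On the WT and KO CD8+ T arrays they summed to 1.24 and 1.09. Summed over 12 B-lineage markers, the level was 689 times the 75th percentile on the WT MSC array and 42.3 times on the KO MSC array, and all 11 measured markers were at least 2-fold lower in KO (Rag2 by a log2 ratio of -5.80). The common leukocyte markers summed to 161 and 41.5 on these arrays, although the gate removed CD45+ cells. Granulocyte markers had high sums on all 4 arrays, with 725 and 815 on the WT and KO MSC arrays. On the WT and KO CD8+ T arrays the sums were 626 and 332, and 5 of 8 markers were at least 2-fold lower in KO. Not every marker was high, and Elane was at -0.40 on the WT MSC array. It was at -0.27 and -0.23 on the WT and KO CD8+ T arrays. The fibroblast markers summed to 367 in WT and 426 in KO CD8+ T cells, but most of this came from Thy1, S100a4, Vim and Ly6a, which T cells express too. The other 11 markers summed to 12.1 in WT and 30.6 in KO CD8+ T cells, against 375 and 869 in MSCs, and Dcn was at 2.63 and 4.31 and Lum (lumican) at -0.89 and 0.85 on the CD8+ T arrays. Which markers to leave out of these sums was chosen after the data were seen. In such sorted bulk RNA, fewer cells of a type and less RNA per cell cannot be told apart.

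All 10 genes were on the array, with 16 probes on 34 spots. RefSeq places them, in build GRCm38.p6, on 7 chromosomes: P4ha1 at chr10:59323197-59373304, P4ha2 at chr11:54100924-54131668, P4ha3 at chr7:100285489-100319701, Plod1 at chr4:147909753-147936776, Plod2 at chr9:92539636-92608428, Plod3 at chr5:136987019-136996646, Serpinh1 at chr7:99345375-99353239, Bmp1 at chr14:70474555-70520716, Pcolce at chr5:137605105-137611522 and Pcolce2 at chr9:95637628-95695551. The positions of the probes within the genes are not given in the sources used here. Of the 16 probes, 15 were well above background on all 4 arrays, and the exception, a P4ha3 probe, was below that level on both CD8+ T arrays. On each of these 15 probes the arrays fell in the same order, with KO MSCs highest, then WT MSCs, then KO CD8+ T cells, and WT CD8+ T cells lowest. The plot of signals by array shows this pattern, and levels in it can be compared along a line only, since probes differ in how bright they are for the same RNA.

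**Figure D1:**
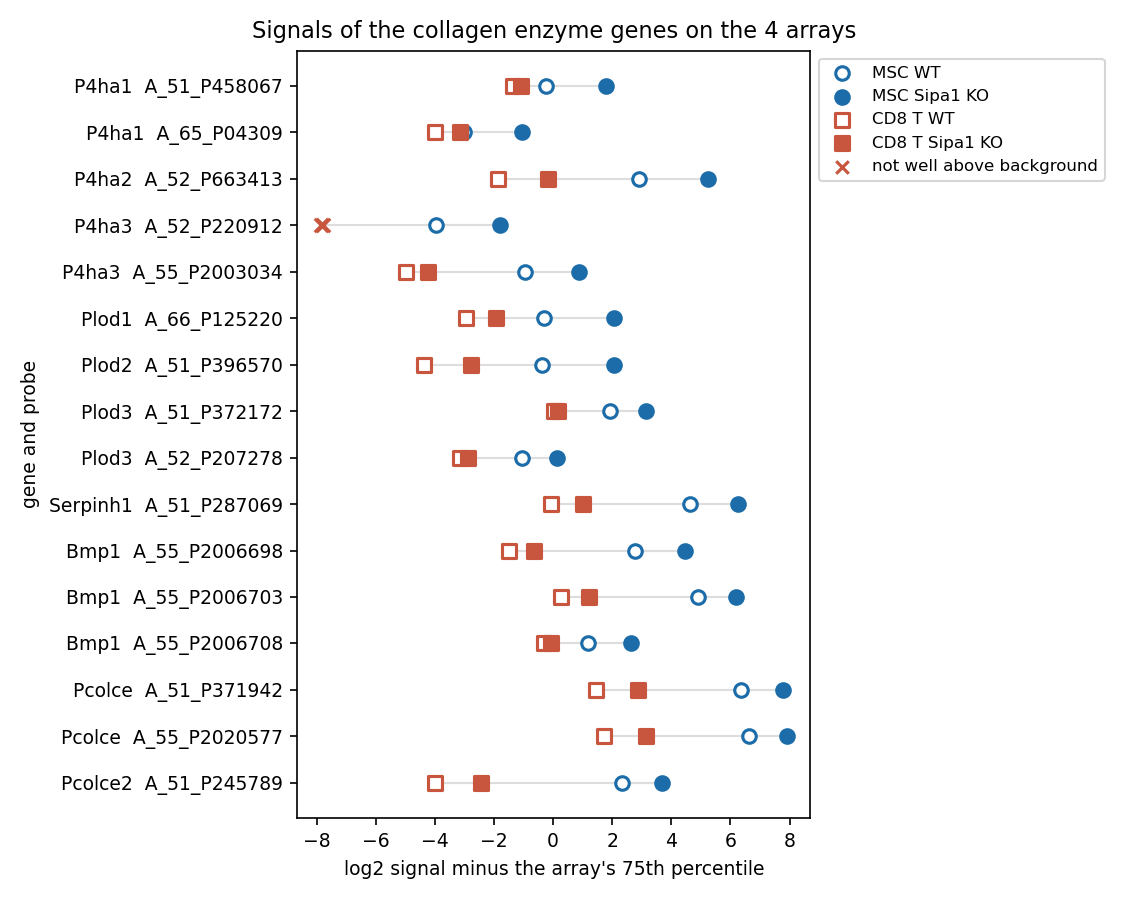
Log2 signal minus the array's 75th percentile (x axis) for each of the 16 probes (y axis), with 1 point per array and no error bars because each condition has 1 array. Filled blue circles, the KO MSC array, are the rightmost point on every line, from -1.78 for a P4ha3 probe to 7.91 for a Pcolce probe, and crosses mark the P4ha3 probe that was not well above background on the CD8+ T arrays.

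The first comparison asks how these genes differed between MSCs of Sipa1 KO and WT hosts. All 10 were at least 2-fold higher on the KO array and none was lower, where 19.3% of 15298 genes measured on both MSC arrays passed 2-fold upward and 11.3% downward. Their median log2 ratio was 1.82 (3.52-fold), with a range of 1.21 to 2.44, beside a median of 0.04 over all genes. On this scale the hydroxylases of proline and 2 of the 3 lysyl hydroxylases had the larger ratios. The genes that act on propeptides after secretion had smaller ones, between 1.35 and 1.48. That order depended on the processing. With a normexp background correction, which raises dim signals, P4ha3 had 1.40 and P4ha1 1.55, beside 1.45 for Bmp1 and 1.63 for Serpinh1. With quantile normalization Serpinh1 had 2.20, above P4ha1 at 2.00 and P4ha3 at 2.01.

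Among the prolyl 4-hydroxylase alpha subunits, which carry the catalytic site, the ratios lay close together on this scale. With normexp they spread from 1.40 for P4ha3 to 2.36 for P4ha2. P4ha1, the widely expressed subunit, had a signal of -0.24 in WT and 1.78 in KO MSCs on one probe and of -3.01 and -1.06 on the other, a mean log2 ratio of 1.98 (3.96-fold). P4ha2, the subunit known from cartilage and bone, went from 2.91 to 5.25, a ratio of 2.34 (5.06-fold), which was higher than that of 98.5% of genes. P4ha3 went from -0.96 to 0.86 and from -3.97 to -1.78 on its probes, with a ratio of 2.00 (4.01-fold). The probes of P4ha1 differed by less than 0.1 in this ratio, and those of P4ha3 gave 1.82 and 2.18.

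The lysyl hydroxylases were less uniform. Plod2, which hydroxylates lysines of the collagen telopeptides that form stable crosslinks, had the largest ratio of the 10 genes on this scale, from -0.37 in WT to 2.08 in KO, or 2.44 (5.44-fold), and 98.9% of genes lay below it. Plod1, which acts on lysines of the helix, went from -0.30 to 2.06, a ratio of 2.35 (5.12-fold). Plod3, which also transfers sugars onto hydroxylysine, had the smallest ratio of the 10, from 1.91 to 3.15 on one probe and from -1.06 to 0.12 on the other, or 1.21 (2.31-fold), above 84.7% of genes. Plod1 and Plod2 thus stood more than 1 log2 unit above Plod3 in the same pair of arrays.

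Serpinh1, the chaperone, went from 4.62 to 6.26, a ratio of 1.65 (3.13-fold), above 92.1% of genes. Bmp1 had 3 probes, with signals of 2.76, 4.89 and 1.18 in WT and of 4.47, 6.18 and 2.62 in KO, and probe ratios between 1.29 and 1.71. Its mean ratio was 1.48 (2.79-fold). Pcolce, the C-proteinase enhancer, was printed on 10 spots per probe and went from 6.37 to 7.77 and from 6.61 to 7.91, a ratio of 1.35 (2.55-fold). Pcolce2 went from 2.33 to 3.70, a ratio of 1.36 (2.57-fold). The ratios of Bmp1, Pcolce and Pcolce2 differed among themselves by 0.13, less than the probes of Bmp1 did.

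Markers of other cells also differed between these arrays. Beside the B-lineage and leukocyte markers that were lower in KO, 10 of 13 measured fibroblast markers were at least 2-fold higher, with a median log2 ratio of 1.62 and a range of 0.69 (Vim) to 2.04 (Fap, fibroblast activation protein). Of the 10 collagen enzyme genes, 6 lay above that fibroblast median, and 5 lay above the median of 1.71 that is left without the 4 markers shared with T cells. Macrophage markers were at least 2-fold higher in 4 of 8 (median 1.02), both measured adipocyte markers were (Lpl at 2.52 and Fabp4 at 1.42), and of 8 granulocyte markers 2 were, Mpo at 2.13 and Elane at 1.57. The part that a different share of any of these cells in the sorts had in the ratios was not tested.

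The main substrates of these enzymes gave smaller ratios in the same arrays. The chains of collagens I and III, picked here because they are the major fibrillar collagens and with their values known, had log2 ratios of 0.26 (Col1a1), 0.35 (Col1a2) and 0.38 (Col3a1), and all 10 enzyme genes lay above each. The Col1a1 probes gave 0.52 and 0.00. These chains were among the brightest spots, and on the KO MSC array only 0.25% of spots were brighter than the brighter Col1a1 probe and 0.00506% brighter than that of Col1a2. Pcolce had a ratio of 1.35, and 0.206% of spots on the KO MSC array were brighter than its brighter probe. On the WT MSC array that share was 3.17%, against 1.2% for the brighter Col1a1 probe and 0.0472% for Col1a2. No spot was flagged as saturated, and whether bright signals were compressed was not tested. Over 10 measured fibrillar chains, 4 were at least 2-fold higher and the median was 0.48, led by Col5a2 at 2.34, Col5a3 at 1.88 and Col2a1 at 1.58.

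Other genes of the collagen pathway were counted from lists. Of 13 measured partners in hydroxylation, glycosylation and folding, 9 were at least 2-fold higher in KO MSCs and none lower, with a median log2 ratio of 1.81. The 3 with the largest ratios were Colgalt2, which adds galactose to hydroxylysine, at 2.43, Fkbp14, a prolyl isomerase of the endoplasmic reticulum, at 2.25, and P3h4, a partner of lysyl hydroxylation, at 2.00. The lowest was Tmem38b, an ion channel of the endoplasmic reticulum, at 0.63. P4hb, the beta subunit that every P4ha chain pairs with, is named here after its value was seen and had a ratio of 1.26, below each alpha subunit.

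All 10 measured partners in propeptide processing and crosslinking were at least 2-fold higher, with a median of 1.88, and Lox (lysyl oxidase) led at 2.65, followed by Postn (periostin) at 2.54 and Loxl3 at 2.35. The lowest of them was Tll1, a proteinase related to Bmp1, at 1.20. Procollagen export was mixed, with 5 of 10 genes at least 2-fold higher and a median of 0.95. Its leading genes were Creb3l1, a transcription factor of secretory cells, at 2.00, Sec24d, a COPII coat subunit, at 1.73, and Creb3l2 at 1.61.

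Lists of wider function had smaller medians. Of 17 general folding genes of the endoplasmic reticulum, 2 were at least 2-fold higher and 1 lower, with a median of 0.43, and the largest in size were Pdia5 at 1.91, Ero1b at -1.54 and Ero1a at 1.24. Of 20 hypoxia-induced genes outside the 10, 9 were at least 2-fold higher and none lower, with a median of 0.72. Egln3, a prolyl hydroxylase that acts on the hypoxia-inducible factor, led that list at 2.44, with Ndrg1 at 1.91 and the carbonic anhydrase Car9 at 1.86. Oxygen in the tumors was not measured here, and its part in the ratios of the hydroxylases was not tested.

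**Figure D2:**
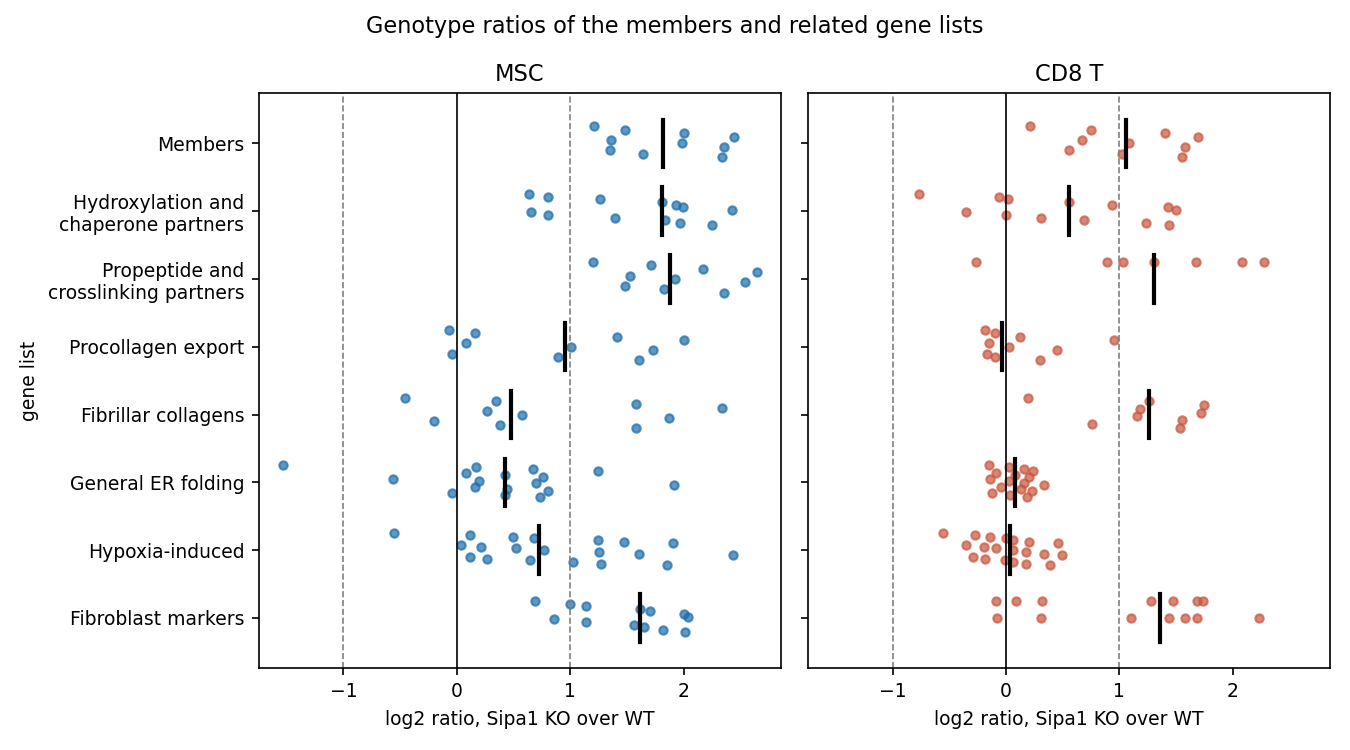
Log2 ratio of Sipa1 KO over WT (x axis) for the 10 genes ("Members") and 7 related lists (rows) in MSCs (left) and CD8+ T cells (right), with 1 point per gene, the median as a black bar and dashed lines at 2-fold. In MSCs the members and their hydroxylation and crosslinking partners have medians of 1.82, 1.81 and 1.88, whereas general folding genes have 0.43 and the hypoxia-induced list has 0.72.

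The same question was asked of the CD8+ T-cell sorts. All 10 genes had a higher signal on the KO array, 6 of them at least 2-fold and none lower, where 2.66% of 14339 genes passed 2-fold upward and 1.4% downward. The median log2 ratio was 1.05, with a range of 0.21 to 1.69, beside -0.02 over all genes. With the background corrected by normexp, which raises dim signals, 2 of the 10 passed 2-fold and the median was 0.55. On every probe both CD8+ T arrays lay below both MSC arrays. The gap was narrowest on a P4ha1 probe, with the KO CD8+ T array at -3.14 and the WT MSC array at -3.01.

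P4ha2 had the largest ratio, from -1.86 in WT to -0.17 in KO CD8+ T cells, or 1.69 (3.23-fold), and 99.4% of genes lay below it. Plod2 went from -4.36 to -2.78, a ratio of 1.58, and Pcolce2 from -3.99 to -2.44, or 1.55 (2.93-fold). Pcolce went from 1.46 to 2.86 and from 1.73 to 3.14, or 1.40 (2.64-fold). These 4 genes were above 98.8% or more of all genes measured in this pair. With normexp, Plod2 had a ratio of 0.49 and Pcolce2 of 0.72, while P4ha2 had 1.20 and Pcolce 1.34.

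Serpinh1 and Plod1 lay near the 2-fold mark. Serpinh1 went from -0.07 to 1.02, a ratio of 1.08, and Plod1 from -2.95 to -1.93, a ratio of 1.03. Both were under 2-fold when arrays were centred on their medians, to 0.94 for Serpinh1 and 0.88 for Plod1. The other 4 genes were under 2-fold, with ratios of 0.75 for P4ha3 (-4.98 and -4.23 on the probe that was measured), 0.67 for Bmp1, 0.56 for P4ha1 and 0.21 for Plod3. The P4ha1 probes gave 0.26 and 0.85 and the Bmp1 probes 0.23 to 0.95, so these means hide unequal probes. Plod3, at 0.03 and 0.18 on one probe and at -3.16 and -2.89 on the other, was the gene with the smallest ratio in both cell types.

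Fibroblast markers differed between these arrays too. Of 14 measured, 9 were at least 2-fold higher on the KO CD8+ T array, with a median log2 ratio of 1.36, and 4 of the 10 enzyme genes lay above that median. Without the 4 markers shared with T cells the count was 9 of 10, the median was 1.53, and 3 of the enzyme genes lay above it. Col1a1 had a ratio of 1.55, Col1a2 of 1.54 and Col3a1 of 1.74, and 2, 3 and none of the 10 genes lay above them. The part of fibroblast RNA in the CD8+ T sorts in these ratios was not tested.

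Among the lists, crosslinking partners were at least 2-fold higher in 5 of 7 measured genes (median 1.31) and fibrillar collagens in 7 of 9 (median 1.26). The hydroxylation and folding partners were so in 4 of 13 (median 0.56). No gene of the export, general folding or hypoxia-induced lists was 2-fold higher or lower, with medians of -0.04, 0.08 and 0.03. Egln3, for instance, had a ratio of -0.19 in CD8+ T cells.

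Set side by side, the genotype ratio was larger in MSCs for 8 of the 10 genes. The gap, the MSC ratio minus the CD8+ T ratio, was widest for P4ha1 (1.43), Plod1 (1.33), P4ha3 (1.25) and Plod3 (1.00), and narrower for Plod2 (0.86), Bmp1 (0.81), P4ha2 (0.65) and Serpinh1 (0.56). The P4ha3 gap set 2 probes in MSCs against 1 in CD8+ T cells, and was 1.07 on the probe measured in both sorts. For Pcolce and Pcolce2 the gap was -0.05 and -0.19, and it turned to 0.01 and 0.58 with normexp and to 0.07 and 0.00 with quantile normalization, where the ratio was larger in MSCs for all 10. With the series matrix it was 0.02 for Pcolce and -0.11 for Pcolce2. No gene had opposite directions in the sorts, and with 1 array per condition the gaps could not be tested.

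**Figure D3:**
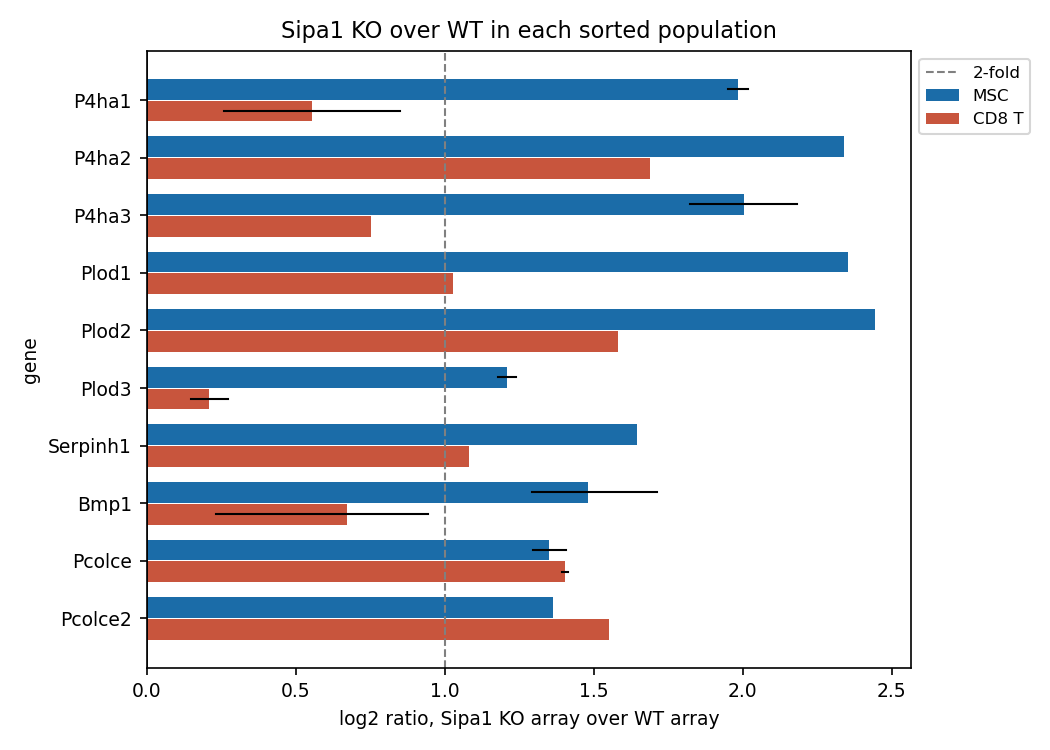
Log2 ratio of the Sipa1 KO array over the WT array (x axis) for each gene (y axis) in MSCs (blue) and CD8+ T cells (red), with black lines from the lowest to the highest probe of genes with more than 1 measured probe and a dashed line at 2-fold. All 10 MSC bars pass the dashed line, 6 of the CD8+ T bars do, and Pcolce and Pcolce2 are the only genes whose CD8+ T bar is the longer, which turns with normexp and quantile normalization.

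The remaining comparisons set MSCs against CD8+ T cells within a genotype, and use the same 4 arrays as above. In WT hosts all 10 genes were at least 2-fold higher in MSCs and none lower, where 17.3% of 14225 genes passed 2-fold upward and 12.8% downward. Their median log2 ratio was 4.01, beside -0.06 over all genes, and 2.64 with normexp. In KO hosts the count was again 10 of 10 with none lower, where 21.9% of 14300 genes passed 2-fold upward and 18.7% downward, and the median was 4.85, beside -0.18.

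Pcolce2 had the largest ratio in both genotypes, with 6.32 in WT (80.0-fold) and 6.13 in KO (70.2-fold), and it ranked 24 from the highest of all genes in WT. With normexp it had 4.65 in WT (25.0-fold), below Pcolce at 4.86, and 5.22 in KO (37.4-fold). Pcolce had 4.90 and 4.85, P4ha2 4.76 and 5.41, and Serpinh1 4.68 and 5.25 in WT and KO. All 4 of these genes were far brighter in the MSC sort of both hosts. P4ha3, on the probe measured in both sorts, had 4.02 and 5.09, and 1.98 and 3.40 with normexp on that same probe. Its other probe was not well above background on either CD8+ T array and was at least 3.02-fold higher in MSCs in WT and at least 13.1-fold in KO.

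P4ha1, Plod3 and Plod1 stood lower. P4ha1 had a ratio of 1.04 in WT and 2.47 in KO, Plod3 of 1.99 and 2.99, and Plod1 of 2.65 and 3.98. The WT ratio of P4ha1 was under 2-fold, at 0.81, with arrays centred on their medians. Plod2 had 3.99 and 4.85, and 2.09 in WT with normexp. Bmp1 had 3.46 and 4.26, but its probes disagreed: in WT they gave 1.48, 4.25 and 4.63, so the size of its difference depends on the probe read.

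**Figure D4:**
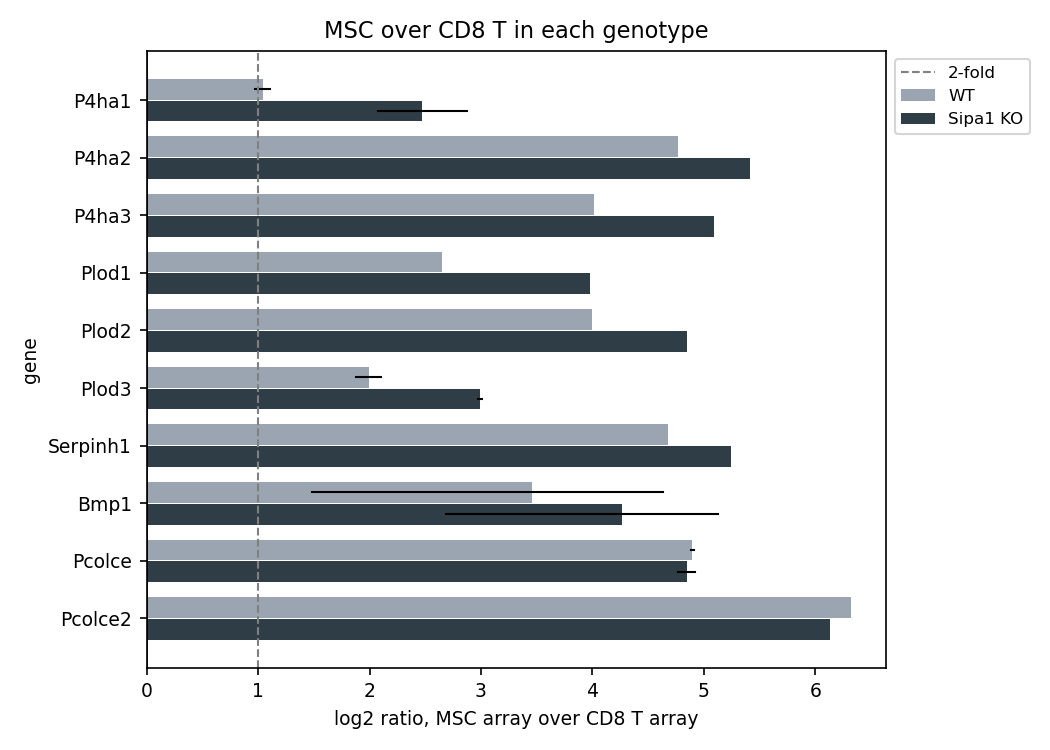
Log2 ratio of the MSC array over the CD8+ T array (x axis) for each gene (y axis) in WT (grey) and Sipa1 KO hosts (dark), with black lines from the lowest to the highest probe and a dashed line at 2-fold. Pcolce2 has the longest bars, at 6.32 and 6.13, and P4ha1 the shortest, at 1.04 and 2.47.

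Genes with the most similar profile were sought among 13766 genes measured on all 4 arrays, as the root mean square difference, in log2 units, from the centred mean profile of the 10 genes. That profile was 1.18 in WT MSCs, 2.98 in KO MSCs, -2.60 in WT and -1.55 in KO CD8+ T cells. The closest were Hoxb7, a homeobox gene, at 0.044, Tns2, a tensin, at 0.063, Bgn, the matrix proteoglycan biglycan, at 0.070, B3galnt1, a glycosyltransferase, at 0.077, and Mmp19, a matrix metalloproteinase, at 0.081, beside a median of 2.31 over all these genes. The 10 genes themselves lay between 0.225 (P4ha3) and 1.21 (P4ha1) from this mean, farther than each of the similar genes named. The likeness is thus to their mean, and it rests on 4 arrays.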

How the data were processed

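Total RNA of the sorted cells was hybridized to Agilent SurePrint G3 Mouse arrays with Cy3. The deposited scanner intensity values are the authors' processed signals, background-corrected by Feature Extraction (version 12.0.3.1 in the file headers, 9.1 in the submitters' processing notes) and not normalized between arrays. The deposited series matrix holds the same intensities times 1 constant per array. Spots were kept by the flags of the study's methods on both arrays of a pair. Signals were taken as log2, shifted by each array's 75th percentile over spots that are not controls, averaged over spots and then probes, and subtracted between arrays. A RefSeq table of GRCm38.p6 gave symbols to the accessions of 57.6% of these spots. Counts used a threshold of 1 in log2 ratio. For a probe not well above background on an array, the bound used the lowest signal well above background there. The rule for named genes took Sipa1, all members, the 3 largest MSC ratios of each list (and the lowest where all were higher) and the 5 most similar profiles. Dcn, Lum, Pdgfra, Pi16, Cd8a, Thy1, S100a4, Ly6a, P4hb, Col1a1, Col1a2, Col3a1 and the dioxygenases other than Egln3 were named outside it, with their values seen. The members and lists were chosen with earlier results of these data known. The calculation was tested on simulated data. Alternatives were flags on 1 array, no flags, a median shift, quantile normalization, the series matrix, normexp on median spot signals (offset 50), only the brightest probe of a gene, and only genes above the median level. Software comprised R 4.3.3 with limma 3.58.1, and Python 3.11.15 with pandas 2.3.3 and numpy 2.4.6.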

Additional observations from a re-analysis of the deposited data

How the results depend on the processing

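No gene of the 10 changed sign under any of the 8 alternatives, and no count of genes lower left 0. In MSCs the median genotype log2 ratio of 1.82 became 1.68 with a median shift, 2.01 with quantile normalization, 2.02 with the series matrix, 1.50 with normexp, 1.73 with the brightest probe and 1.56 for the 8 genes above the median signal. In CD8+ T cells 1.05 became 0.91 with a median shift, 1.19 with the series matrix and 0.55 with normexp, and the count of 6 became 2 with normexp and 2 of 3 measured above the median signal. MSC over CD8+ T in WT, 4.01, became 3.77 with a median shift, 3.78 with quantile normalization, 4.46 with the series matrix, 2.64 with normexp, 4.33 with the brightest probe and 4.72 above the median signal, where the count was 4 of 4 measured. In KO, 4.85 became 4.63, 4.97, 5.38, 3.97 and 4.92 under the first 5 of these alternatives in that order. In CD8+ T cells Serpinh1 (0.94) and Plod1 (0.88) fell under 2-fold with a median shift, and Plod1 (0.91) with quantile normalization. P4ha1 in MSC over CD8+ T in WT did so under both, at 0.81 and 0.89. Under normexp, Plod2 (0.49), Plod1 (0.51), Pcolce2 (0.72) and Serpinh1 (0.98) fell under 2-fold in CD8+ T cells and P4ha1 (0.56) in MSC over CD8+ T in WT. The offset adds to low signals, so normexp shrinks ratios of dim probes.

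Over all genes, the share of higher among those past 2-fold was 63.1% in MSCs, with 54.1% under a median shift and 74.1% with the series matrix. It was 65.5% in CD8+ T cells, with 52.5% under a median shift, 76.3% with the series matrix, 52.4% with normexp and 48.9% above the median signal. For MSC over CD8+ T it was 57.4% in WT and 54.0% in KO, with 45.5% and 42.9% under a median shift and 76.6% and 76.3% with the series matrix. The median of all genes moved with them, from 0.04 to 0.25 in MSCs, -0.02 to 0.11 in CD8+ T cells, -0.06 to 0.39 in WT and -0.18 to 0.34 in KO with the series matrix, and to -0.10, -0.17, -0.29 and -0.41 with a median shift. Both alternatives move every gene of an array alike. With normexp the members' median minus that of all genes went from 1.77 to 1.47 in MSCs, 1.08 to 0.55 in CD8+ T cells, 4.07 to 2.73 in WT and 5.03 to 4.16 in KO. The counts of 2958 higher and 1733 lower genes in MSCs became 1828 and 1190 with normexp and 1307 and 901 above the median signal. In CD8+ T cells 381 and 201 became 685 and 371 with flags on 1 array, 1059 and 633 with no flags, 108 and 98 with normexp and 67 and 70 above the median signal. For MSC over CD8+ T, 2457 higher and 1821 lower genes in WT became 3898 higher with flags on 1 array, 4185 with no flags, 860 and 861 above the median signal, and 1082 lower with the series matrix, and 3131 and 2671 in KO became 4739, 5019, 1307 and 1384, and 1357 in the same order. No paired analysis was possible because the conditions share only 1 replicate number, and no array could be left out for the same reason. Signal over background limits P4ha3, Plod2 and Pcolce2 most in CD8+ T cells.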

Other observations

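Prolyl and lysyl hydroxylases belong to the dioxygenases that use 2-oxoglutarate, and the rest of that enzyme family, a list chosen after the members' values were seen, was read in the same arrays. Of 31 measured genes outside collagen modification, 5 (16.1%) were at least 2-fold higher on the KO MSC array and none lower, with a median log2 ratio of -0.03. That share is no larger than the 19.3% of all genes, so the count is no result about the family. The 5 were Egln3 (2.44) and Egln1 (1.03), which hydroxylate the hypoxia-inducible factor, P4htm (1.71), a transmembrane prolyl hydroxylase, Kdm5b (1.38), a histone demethylase, and Asph (1.33), an aspartyl hydroxylase of the endoplasmic reticulum. On the CD8+ T arrays none of the family was 2-fold higher or lower, and the median was 0.05. Asph was also higher in MSCs than in CD8+ T cells, with log2 ratios of 3.33 in WT and 3.93 in KO. The spots of Asph that passed the flags differed between the WT and the KO pair, so these values do not compare like with like.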
